A study of Solenopsis invicta with 3 samples.

Results

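Antennal gene expression of monogyne SB/SB workers (M_BB) was compared with that of polygyne SB/SB workers (P_BB) of the fire ant Solenopsis invicta, over all 19703 gene IDs of the expression tables. Genotype at the social supergene was the same in both classes, since both carried only the SB version, and the social form of the colony differed. The members of the comparison were therefore every listed gene, and 8393 of the 19703 averaged at least 10 normalized counts over the 3 libraries of the series. Monogyne colonies hold a single queen and polygyne colonies hold several. The tissue was the antennae of foraging workers, from which polyA RNA was taken and, after SMARTer amplification with strand kept, read from both ends. Each class was 1 library made from RNA pooled over colonies. The labels name 4 colonies for the P_BB pool and 4 other colonies for the M_BB pool, whereas the design text states that 3 bioreplicates were mixed per class, so social form and colony origin cannot be told apart. The remaining library, P_Bb, came from SB/Sb workers whose label names the same 4 polygyne colonies as that of P_BB, and its values are given beside the comparison. With a single library a side there was no replicate check. Each log2 ratio of M_BB to P_BB is given with a 95% interval that covers counting error only, and no p-value was computed.

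Antennae are the main organ of smell in ants. Odorant receptors in the membranes of antennal sensory neurons detect odorants, odorant binding proteins in the surrounding lymph carry them, and enzymes there clear or modify lipid-like compounds. Ants recognise nestmates and queens largely by blends of cuticular hydrocarbons, which are made from fatty acids by elongases, desaturases and reductases. Monogyne workers accept only their own queen, whereas workers of polygyne colonies tolerate several.

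The gene IDs fall into 3 classes that differ in what their models hold. The official gene set gave 15589 IDs beginning SINVm1_gene, the antennal transcripts that the authors added gave 3641 XLOC IDs, and the odorant receptor sequences gave 473 SiOR IDs. Model length was a multiple of 3 for 99.5% of the SINVm1_gene IDs and for all 473 SiOR IDs, as it is for coding sequences, and for 28.2% of the XLOC IDs. Of the 8393 genes compared, 5989 were SINVm1_gene (71.4%), 2227 were XLOC (26.5%) and 177 were SiOR (2.11%). The summed expected counts were 1453234 in M_BB and 1800106 in P_BB, against 1310209 in P_Bb. A count above 0 was found for 437 SiOR IDs in M_BB and 439 in P_BB, and these receptors took 0.400% of the counts in M_BB (Wilson 95% interval 0.390 to 0.410) and 0.356% in P_BB (0.347 to 0.365). This order turned on normalized counts, which for all receptors summed to 5451 in M_BB and 5741 in P_BB. The odorant binding protein SiOBP12 (SINVm1_gene_02111), whose expressed copy is placed on the Sb version of the supergene, served as a check of the genotype labels. It had an expected count of 1 in M_BB, 1 in P_BB and 19 in P_Bb.

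A ratio of at least 2-fold between M_BB and P_BB was found for 332 of the 8393 genes, or 3.96%. Of these, 185 genes were higher in M_BB (2.2%) and 147 were lower (1.75%). A counting interval that also left out equal levels was found for 148 of the higher genes (1.76% of all compared) and 114 of the lower ones (1.36%). The interval lay wholly past 2-fold for 15 higher genes (0.179%) and 12 lower genes (0.143%). The 12 include SINVm1_gene_10898 and XLOC_034528, which were listed at 0 in M_BB. On posterior mean counts their log2 ratios were -0.53 and -0.96, under 2-fold. The division between directions moved with the scaling: 385 genes were higher and 64 lower when libraries were scaled to their total expected counts, and 285 and 99 on the TPM scale. Total counts placed the median of all genes at 0.22 and TPM placed it at 0.13, whereas the upper-quartile scaling used throughout placed it at -0.02. Changes are therefore read relative to the median of all genes. In bulk antennae, fewer cells of a type and less RNA per cell cannot be told apart.

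**Figure D1:**
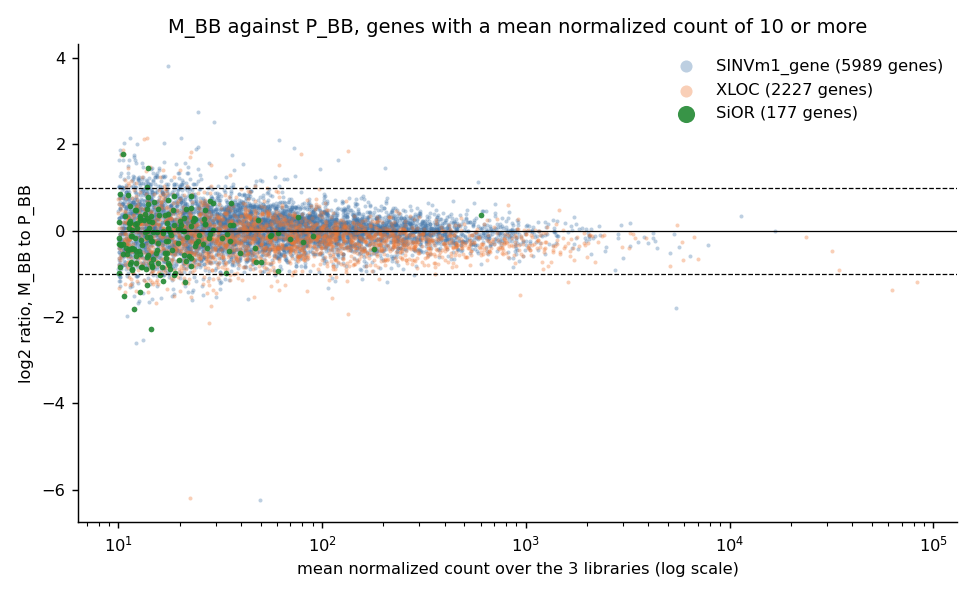
Log2 ratio of M_BB to P_BB against the mean normalized count (log axis) for the 8393 genes compared, coloured by ID class, with dashed lines at 2-fold. The XLOC genes lie lower than the SINVm1_gene genes at every level, by 0.22 between the class medians; the 2 genes near -6 were listed at 0 in M_BB.

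The genes higher in M_BB were ranked by the lower bound of their interval, so that genes with many counts are not passed over for low genes with large ratios. The first 10 were 8 SINVm1_gene and 2 XLOC genes, and a single gene among them has a predicted function. SINVm1_gene_10771 was first, with 39.9 normalized counts in M_BB, 2.35 in P_BB and 10.5 in P_Bb. Its log2 ratio was 3.82 (95% counting interval 2.26 to 6.24), and it was the highest ratio among all genes compared. SINVm1_gene_00237 had 53.1 normalized counts in M_BB, 7.44 in P_BB and 13.1 in P_Bb, a log2 ratio of 2.75 (1.82 to 4.18). SINVm1_gene_15260 had 63.2, 10.6 and 14.6 in the same order, a log2 ratio of 2.52 (1.65 to 3.57). In these 3 genes P_Bb lay between the SB/SB libraries. On the log2 scale it was nearer to P_BB for SINVm1_gene_00237 and SINVm1_gene_15260, and slightly nearer to M_BB for SINVm1_gene_10771 (1.88 below M_BB and 1.95 above P_BB).

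The next genes had more counts and correspondingly narrower intervals. SINVm1_gene_00026 had 128 normalized counts in M_BB against 29.3 in P_BB and 27.6 in P_Bb, a log2 ratio of 2.10 (1.55 to 2.70). XLOC_002097 had 276 in M_BB, 76.2 in P_BB and 50.0 in P_Bb, a log2 ratio of 1.85 (1.50 to 2.22). SINVm1_gene_00260, whose model has a coding length of 13341 bases, had 353 in M_BB, 129 in P_BB and 130 in P_Bb, a log2 ratio of 1.45 (1.17 to 1.74). In each of these 3 genes M_BB stood above both polygyne libraries. XLOC_001908 had a P_Bb value farther from P_BB, since its 129 normalized counts in M_BB stood against 37.3 in P_BB and 68.8 in P_Bb (log2 ratio of M_BB to P_BB 1.78, 1.27 to 2.32). SINVm1_gene_01130 (209, 66.3 and 84.5 in M_BB, P_BB and P_Bb) and SINVm1_gene_00990 (53.0, 13.4 and 7.14) completed the first 10 with the desaturase SINVm1_gene_14166, described with the genes of known function below. XLOC_003793, the third XLOC gene of this direction, had 114 normalized counts in M_BB, 39.4 in P_BB and 29.7 in P_Bb. The most abundant gene among those higher was SINVm1_gene_13864, with 917 normalized counts in M_BB, 416 in P_BB and 415 in P_Bb (log2 ratio 1.14, 0.98 to 1.30), and it shared no read with another transcript.

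Among the genes lower in M_BB, the first 10 were 7 XLOC and 3 SINVm1_gene genes. The first places were taken by SINVm1_gene_10898 and XLOC_034528, which were listed at 0 in M_BB and are described with the genes at 0 below. SINVm1_gene_10534 had the lowest ratio among genes with a mean of at least 500, with 2407 normalized counts in M_BB, 8305 in P_BB and 5735 in P_Bb. Its log2 ratio was -1.79 (95% counting interval -1.85 to -1.72). XLOC_003265, an uncharacterized protein gene of the study's social form list, had 45.0 in M_BB, 172 in P_BB and 186 in P_Bb, a log2 ratio of -1.92 (-2.42 to -1.47). XLOC_003605, from the same list and also uncharacterized, had 46.9 in M_BB, 140 in P_BB and 149 in P_Bb, a log2 ratio of -1.57 (-2.07 to -1.11). In both XLOC genes the polygyne libraries differed little from each other and M_BB lay below both.

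Several of the lower genes were among the most abundant transcripts of the antennae. XLOC_043984 had 34004 normalized counts in M_BB, 87737 in P_BB and 65769 in P_Bb, a log2 ratio of -1.37 (-1.38 to -1.35). XLOC_043981, the most abundant gene of the tables, had 48235, 109864 and 92951 in the same order, a log2 ratio of -1.19 (-1.20 to -1.17). These are the 2 genes with the most counts, and M_BB was the lowest library for both. XLOC_043984 came to a log2 ratio of -0.82 on the TPM scale and XLOC_043981 to -0.94 under total-count scaling. Each was thus under 2-fold at an alternative and kept its direction. XLOC_043984 moved more on the TPM scale than the median of all genes, which went from -0.02 to 0.13. It has 2 transcripts, and how its reads divided between them was not examined. Below them, XLOC_036824 had 507 normalized counts in M_BB, 1416 in P_BB and 897 in P_Bb (-1.48, -1.62 to -1.34). XLOC_029912 (9.38, 43.0 and 30.9 in M_BB, P_BB and P_Bb) and SINVm1_gene_00494 (3.75, 24.2 and 11.9) were low genes whose intervals reached 1.20 and 1.17 below 0 at the nearer bound.

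**Figure D2:**
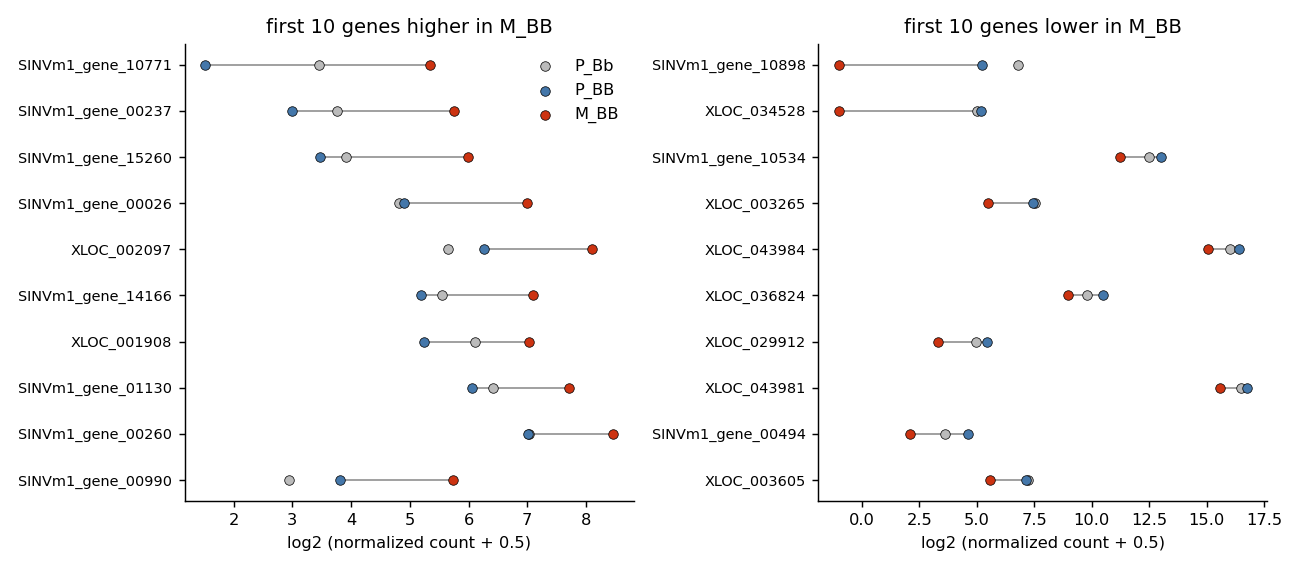
Log2 of the normalized count plus 0.5 in P_Bb (grey), P_BB (blue) and M_BB (red) for the first 10 genes in each direction, ranked by the interval bound nearest 0. M_BB is the highest library in all 10 genes on the left and the lowest in all 10 on the right, and a count of 0 is drawn at -1.

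The first 5 genes by mean count all had XLOC IDs and together took 11.4% of the counts in M_BB, 18.8% in P_BB and 16.0% in P_Bb. XLOC_001500 was lower in M_BB by less than 2-fold, with 24216 normalized counts against 45607 in P_BB and 33236 in P_Bb (log2 ratio -0.91, -0.94 to -0.89). XLOC_016279 had 25375, 35369 and 34890 (-0.48, -0.50 to -0.46). XLOC_043982 had 23073, 25302 and 22798 (-0.13, -0.16 to -0.11), so its ID lies next to those of the genes above but its counts were near equal. All XLOC genes together took 38.9% of the counts in M_BB, 46.7% in P_BB and 44.1% in P_Bb. Without those 5 genes the shares were 31.0%, 34.3% and 33.5%, so the lower XLOC share of M_BB was smaller but not confined to them. The gene with the highest TPM, SINVm1_gene_06964, chosen here after its values were seen, went the other way, with 144269 TPM in M_BB, 102703 in P_BB and 96855 in P_Bb. On the normalized count scale its log2 ratio was 0.34 (0.31 to 0.37).

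The directions divided differently between the ID classes. Of the SINVm1_gene genes compared, 152 were higher in M_BB (2.54%) and 72 were lower (1.20%). Of the XLOC genes, 30 were higher (1.35%) and 66 were lower (2.96%), and the direction of this split turned under total-count scaling, with 62 higher and 29 lower. Higher genes thus made up 67.9% of the SINVm1_gene calls and 31.25% of the XLOC calls. The corresponding shares were 91.3% and 68.1% under total counts and 85.5% and 46.4% on the TPM scale, so the gap between the classes was present at each scaling while the level of both shares moved. By rank, 38 of the first 50 higher genes were SINVm1_gene and 12 XLOC, near their shares of all genes compared (71.4% and 26.5%). Of the first 50 lower genes, 21 were SINVm1_gene, 28 XLOC and 1 SiOR, so the ranks departed from those shares on the lower side only.

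The same gap was seen over all genes and not only over those called. The median log2 ratio of M_BB to P_BB was 0.03 for SINVm1_gene (quartiles -0.21 and 0.29) and -0.19 for XLOC (-0.44 and 0.08), a difference of 0.22. The difference lay between 0.20 and 0.24 at every alternative scaling, filter and pseudocount tried. A counting interval wholly below 0 was found for 13.2% of all genes compared and one wholly above 0 for 7.48%. For SINVm1_gene these were 9.05% each, with 542 genes on either side. For XLOC, 557 of the 2227 genes lay below 0 and 83 above (3.73%). Under total counts the XLOC figures were 220 below and 293 above, against 145 and 1665 for SINVm1_gene, so XLOC genes again lay lower than SINVm1_gene genes while both classes were shifted upward.

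The class difference was of similar size at each expression level, length and degree of read sharing. In bins of mean normalized count from 10 to 20, 20 to 50, 50 to 100, 100 to 500, and 500 and over, the SINVm1_gene median exceeded the XLOC median by 0.19, 0.22, 0.20, 0.23 and 0.20. In the shortest, middle and longest tertile of the genes by model length it did so by 0.19, 0.23 and 0.22. Among genes with reads shared between transcripts (a posterior SD above 0 in either library) the difference was 0.21, and among genes with none it was 0.23. Between the polygyne libraries, P_Bb and P_BB, whose labels name the same colonies, the class medians differed by 0.03 (0.02 for SINVm1_gene and -0.01 for XLOC). Between M_BB and P_Bb the difference was 0.20, a comparison that shares the M_BB library with the first. XLOC and SINVm1_gene models differ in whether they hold more than the coding sequence, as their lengths show, and the part of that difference in the result was not tested.

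**Figure D3:**
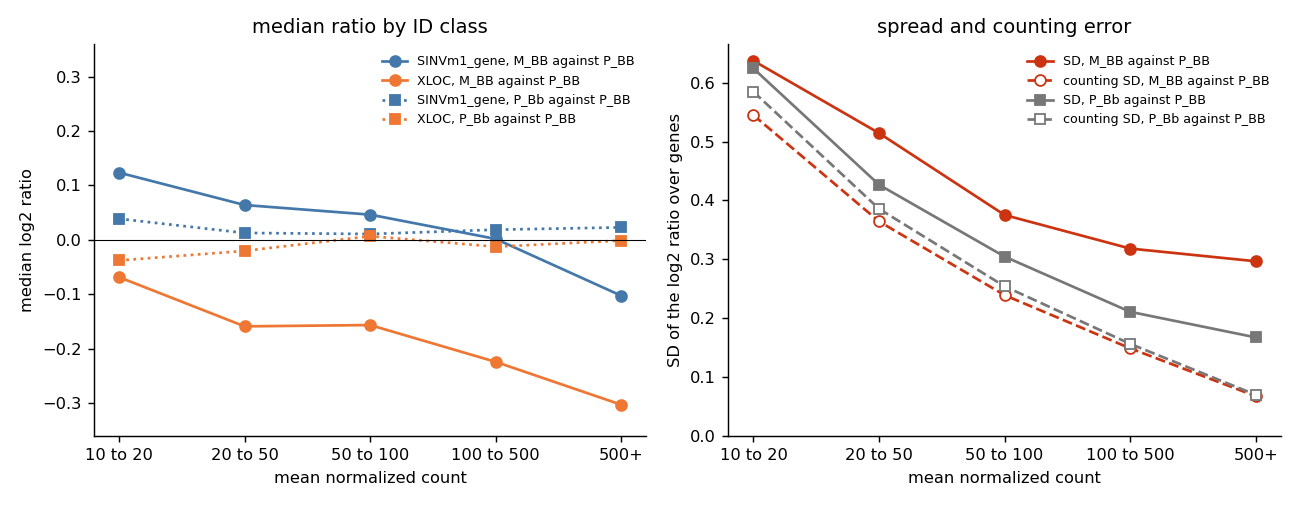
Left, median log2 ratio by bin of mean normalized count for SINVm1_gene (blue) and XLOC genes (orange), for M_BB against P_BB (solid) and P_Bb against P_BB (dotted); the solid lines stay about 0.2 apart and the dotted lines nearly meet, and total-count scaling would raise both solid lines alike. Right, SD of the log2 ratio over genes (filled) and the SD that counting error gives (open) for the same pairs, where M_BB against P_BB has the larger SD in each bin.

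Calls were concentrated at low counts in both classes. Of the 332 genes, 194 averaged between 10 and 20 normalized counts, where 11.0% of genes were called, and 97 had a mean between 20 and 50. Above a mean of 50 there were 41 genes, 15 higher and 26 lower. Among the 4 higher and 19 lower genes with a mean of at least 100, 3 and 7 were SINVm1_gene and 1 and 12 were XLOC, and under total counts the numbers were 12 higher and 6 lower. In all 23 of these genes P_Bb differed from P_BB by less than 2-fold and lay on the same side of M_BB as P_BB. Over all genes the log2 ratio of P_Bb to P_BB had an SD of 0.21 at a mean of 100 to 500 and 0.17 at 500 and over. A difference under 2-fold was thus usual at this level, and its share over all genes was not counted. Since M_BB and P_BB entered the choice of the 23 genes, their number is a description only. With rising level the median of all genes went from 0.06 in the lowest bin to -0.17 in the highest. Under total counts, where all medians lay higher, it was 0.27 below a mean of 50 and 0.08 at 500 and over. In the highest bin 149 of the 188 XLOC genes had an interval wholly below 0 and 8 one wholly above, against 125 and 47 of 283 SINVm1_gene genes. Under total counts the highest XLOC bin held 70 below and 44 above, and the SINVm1_gene bin 38 and 154.

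**Figure D4:**
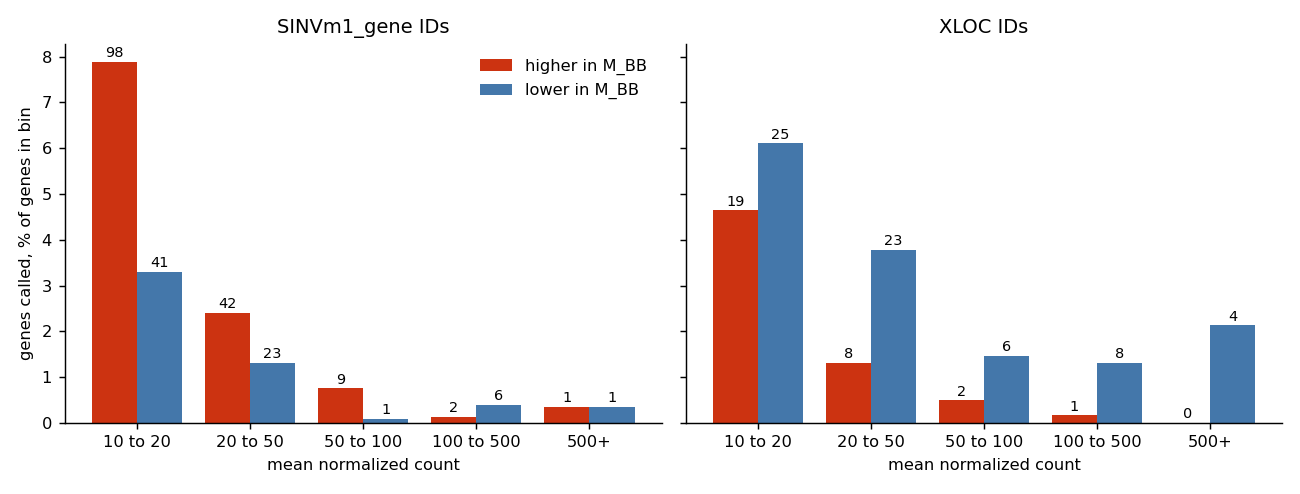
Percent of the genes in each bin of mean normalized count that were at least 2-fold higher (red) or lower (blue) in M_BB, with the number of genes over each bar, for SINVm1_gene and XLOC IDs. SINVm1_gene calls were mostly higher below a mean of 100 (98, 42 and 9 genes) and XLOC calls mostly lower in each bin; under total-count scaling more XLOC genes were higher than lower overall.

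The spread of the ratios exceeded counting error in each bin. Over all genes the SD of the log2 ratio was 0.47, where Poisson error of both counts gave 0.34. In the bin of 500 counts and over it was 0.30 against 0.07, and in the bin of 10 to 20 it was 0.64 against 0.54. Subtracting the counting variance left an SD of 0.33 in the lowest bin and 0.29 in the highest. For P_Bb against P_BB the remainder was 0.22 in the lowest bin and 0.15 in the highest. That pair shares the P_BB library with M_BB against P_BB, and its labels name the same 4 colonies for both pools. The ratios of M_BB to P_BB thus spread more widely than those of P_Bb to P_BB at each level, with 1 library behind each class and no measure of how replicate pools would spread.

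Where P_Bb lay is a description of the same genes in workers of the same social form as P_BB. The labels of both name the same 4 colonies, so shared social form and shared colonies cannot be told apart. Of the 147 genes lower in M_BB, P_Bb was nearer to P_BB than to M_BB on the log scale in 119, and of the 185 higher genes in 100. Among genes with a mean of at least 50 these were 26 of 26 lower genes and 12 of 15 higher genes. The median log2 ratio of P_Bb to P_BB was -0.18 for those 26 and 0.29 for those 15, where M_BB to P_BB gave -1.17 and 1.42. M_BB and P_BB both entered the choice of these genes and the distances to P_Bb, so these numbers are a description only. Over all 8393 genes the log2 ratio had an SD of 0.41 for P_Bb to P_BB and 0.52 for M_BB to P_Bb. The share of all genes in which P_Bb was nearer to P_BB was not counted.

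The odorant receptors, which are the genes of the antenna that detect odorants, had low counts. Of the 177 SiOR genes compared, 3 were higher in M_BB (1.69%, against 2.2% of all genes) and 9 lower (5.08%, against 1.75%), and under total counts the direction turned, with 8 higher and 5 lower. In the bin of 10 to 20 counts, which held 119 of the 177, 9.24% of receptors and 11.0% of all genes were called in either direction. All 12 receptors called had a mean normalized count under 50, the level of 166 of the 177. SiOR435 had 3.69 normalized counts in M_BB, 19.7 in P_BB and 20.2 in P_Bb, a log2 ratio of -2.27 (-4.39 to -0.84). SiOR112 had 3.75, 14.3 and 17.8 (-1.80, -3.97 to -0.30), and SiOR442 had 10.9, 25.6 and 27.3 (-1.19, -2.31 to -0.19). SiOR442 came to -0.96 under total counts and -0.94 at a pseudocount of 5, and its interval, once widened by read assignment, held 0 with an upper bound of 0.04. In these 3 receptors the polygyne libraries were close and M_BB was lower, on expected counts of 3.94, 4 and 11.6 in M_BB. SiOR50 (-1.17, -2.31 to -0.19), whose upper bound ties with that of SiOR442, differed from them, since its P_Bb value of 12.5 was near the 11.3 of M_BB and below the 26.0 of P_BB. Higher receptors were SiOR35 with 15.7 in M_BB, 4.23 in P_BB and 11.6 in P_Bb, and SiOR358 with 20.6, 7.17 and 14.3. Their P_Bb values lay nearer to M_BB than to P_BB, and the interval of the remaining higher receptor, SiOR12 (16.9, 8.07 and 16.7), held 0.

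The receptors with the highest TPM were under 2-fold. SiOR1_co, the first of them, had 706 normalized counts in M_BB, 544 in P_BB and 551 in P_Bb (log2 ratio 0.38, 0.22 to 0.53). Its posterior SD of 133 counts in P_BB and 87.5 in M_BB shows that many of its reads could have been assigned elsewhere. Once widened by read assignment, its interval ran from -0.34 to 1.10 and held 0. SiOR473 had 148, 199 and 194 in the same order (-0.43, -0.73 to -0.12). SiOR441, SiOR79 and SiOR210 had log2 ratios of -0.12, -0.25 and 0.31 with intervals that held 0. Without SiOR1_co, the normalized counts of all receptors summed to 4745 in M_BB, 5196 in P_BB and 5359 in P_Bb, an order that turned with the scaling. As shares of the total counts the same receptors took 0.348% in M_BB, 0.322% in P_BB and 0.344% in P_Bb.

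Predicted functions were known for the genes that the study's own table lists. The study chose them on a separate set of libraries, made at least in part from the same RNA, so they are no independent evidence. It chose genes in both directions, and the direction of a function list below is not independent of that choice. Of its 43 social form genes, 38 were compared, 3 were higher in M_BB and 4 lower, where 2.2% and 1.75% of all genes were. Of the 81 genes of all its lists, 65 were compared, 3 were higher and 7 lower.

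Of the enzymes of fatty acid and lipid synthesis, 3 of 4 were compared, 2 were called higher and none lower, with a median of 1.34. All members came from the social form list, so this shared direction is not independent of how they were chosen. SINVm1_gene_14166, an acyl-delta desaturase that places double bonds in fatty acyl chains, had 136 normalized counts in M_BB, 35.9 in P_BB and 46.4 in P_Bb. Its log2 ratio was 1.91 (1.41 to 2.47), and it was sixth among all higher genes. SINVm1_gene_01163, a fatty acyl reductase of the kind that makes fatty alcohols, had 34.7, 13.4 and 10.7 (1.34, 0.47 to 2.34). SINVm1_gene_01650, a glycerol-3-phosphate acyltransferase of glycerolipid synthesis, had 68.4, 43.0 and 48.8 (0.66, 0.12 to 1.23). In these 3 enzymes M_BB was the highest library and the polygyne libraries were near each other. The remaining member, the fatty acid synthase SINVm1_gene_00676, had 5.11 expected counts in M_BB and 0 in P_BB and P_Bb, which is too few for a ratio.

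The social form list holds 5 transporter, channel and signalling genes. All 5 were compared, none was called, 3 had an interval wholly above 0, and their median was 0.74. That direction is not independent of how the study chose them. SINVm1_gene_12498, an ATP-binding cassette transporter of subfamily G, a group known in mammals for sterol export, had 154 normalized counts in M_BB, 85.2 in P_BB and 66.6 in P_Bb (0.85, 0.48 to 1.23). SINVm1_gene_06423, similar to croquemort, a scavenger receptor of the CD36 family in Drosophila, had 99.4, 59.2 and 47.6 (0.74, 0.29 to 1.21). SINVm1_gene_02017, similar to the receptor guanylate cyclase 32E, had 138, 103 and 115 (0.42, 0.06 to 0.78). These differences were under 2-fold. SINVm1_gene_00053, similar to painless, a channel for heat and noxious stimuli in Drosophila, had 21.9, 11.9 and 21.3 (0.85, -0.15 to 1.99), so P_Bb was level with M_BB. The transporter SINVm1_gene_03418 had a log2 ratio of -0.06.

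Of the other metabolic enzymes of the list, 1 of 5 was called, and their median was 0.18. Their ratios lay above 0 in 3 and below 0 in 2, a division that is not independent of how they were chosen. SINVm1_gene_02300, a prophenoloxidase subunit of the melanization response, had 18.8 normalized counts in M_BB, 6.27 in P_BB and 8.33 in P_Bb (1.51, 0.28 to 3.06). SINVm1_gene_04127, a UDP-glucuronosyltransferase of the family that conjugates lipophilic compounds, had 426, 344 and 330 (0.31, 0.11 to 0.51). The trehalose-phosphate synthase SINVm1_gene_03610 was at 0.18 and the sulfatase SINVm1_gene_10049 at -0.23, with intervals that held 0. The esterase SINVm1_gene_00238, similar to an aphid esterase that binds insecticides, had 101, 132 and 164 (-0.38, -0.75 to -0.01).

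Genes of nucleic acid and protein handling on the social form list had a median of -0.23, with 8 of 9 compared, 1 called lower and 3 with an interval wholly below 0. Over the 10 compared genes of this function on all the study's lists the median was -0.20, and under total counts it turned to 0.04. XLOC_030870, an AAA ATPase, had 12.2 normalized counts in M_BB, 28.7 in P_BB and 24.98 in P_Bb (-1.20, -2.29 to -0.26), and under total counts it came to -0.96. SINVm1_gene_04713, which resembles a ribosomal RNA processing protein, had 79.7, 124 and 105 (-0.63, -1.04 to -0.23). XLOC_020263, of the CELF family of RNA binding proteins that act in splicing, had 1231, 1850 and 1869 (-0.59, -0.69 to -0.49). The polygyne libraries were level for XLOC_020263 and M_BB lay lower. Intervals that held 0 were found for SINVm1_gene_12026 (poly(A) binding protein, 0.35), SINVm1_gene_04716 (exonuclease, 0.36), XLOC_042434 (DnaJ, -0.10), SINVm1_gene_01363 (COP9 signalosome subunit, -0.24) and SINVm1_gene_04300 (ankyrin repeat protein, -0.21). The deoxyribonuclease SINVm1_gene_10721 had at most 1 count in any library.

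The whirlin-like gene XLOC_027187, similar to a scaffold protein of mammalian hearing, had 185 normalized counts in M_BB, 261 in P_BB and 245 in P_Bb (-0.49, -0.76 to -0.23), and it was the sensory gene of the social form list. Transposable element genes of that list had a median of -0.22, with 4 of 6 compared and none called, beside -0.43 over the 12 compared on all lists (-0.20 under total counts). SINVm1_gene_10899, a mariner element gene, had 43.4, 72.8 and 130 (-0.74, -1.31 to -0.21) with a posterior SD of 20.9 counts in M_BB. Its interval widened by read assignment ran from -2.30 to 0.81 and held 0. XLOC_001842, XLOC_002577 and SINVm1_gene_10481 were at 0.33, -0.17 and -0.27 with intervals that held 0. XLOC_032988 and SINVm1_gene_09125 had too few counts to be compared. Of the genes with a function on the study's other lists, only SINVm1_gene_00196, a harbi1-like nuclease of the kind found in transposons, was called, with 22.5 normalized counts in M_BB, 52.0 in P_BB and 21.4 in P_Bb (-1.19, -1.96 to -0.50), and under total counts it came to -0.95. P_Bb was level with M_BB for this gene, and P_BB stood above both.

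The 13 genes of the social form list with no predicted role had a median of -0.41, with 12 compared, 3 called lower and none higher, and 7 intervals wholly below 0 against 3 above. Besides XLOC_003265 and XLOC_003605, the gene called was XLOC_041335, with 16.9 normalized counts in M_BB, 36.8 in P_BB and 39.3 in P_Bb (-1.10, -2.01 to -0.29).

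**Figure D5:**
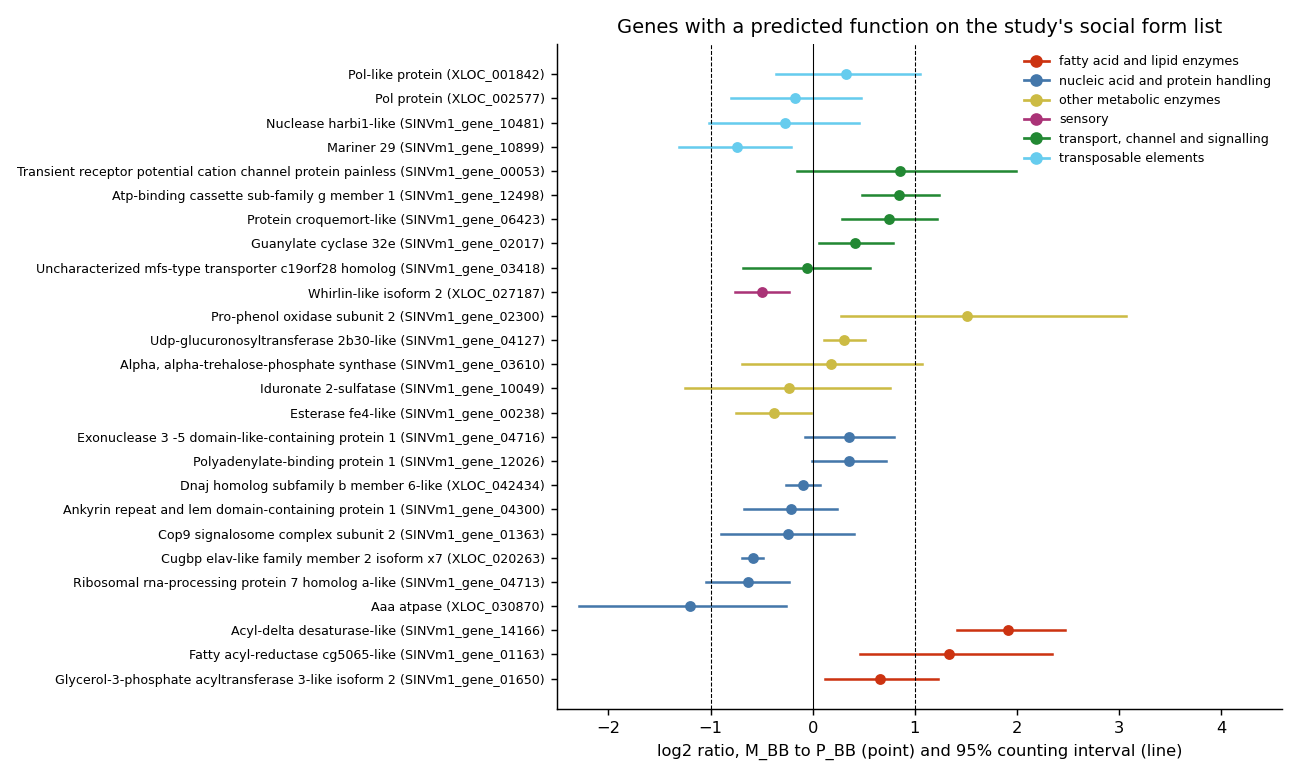
Log2 ratio of M_BB to P_BB (points) with its 95% counting interval (lines) for the 26 compared genes of the study's social form list that have a predicted function, coloured by function list, with dashed lines at 2-fold. The intervals of the 3 lipid enzymes lie wholly above 0, and the nucleic acid and protein genes lie on both sides of it. These directions are not independent of how the study chose the genes, from libraries made at least in part from the same RNA.

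Across all 19703 IDs, 12521 had a count in both libraries, 961 in M_BB only, 986 in P_BB only and 5235 in neither. The highest expected count of a gene at 0 in P_BB was 11 in M_BB, and the highest of a gene at 0 in M_BB was 41.8 in P_BB. No gene with 15 or more normalized counts in M_BB was at 0 in P_BB, whereas 4 genes with 15 or more in P_BB were at 0 in M_BB. SINVm1_gene_10898 had expected counts of 41.8 in P_BB and 93.0 in P_Bb, and XLOC_034528, an uncharacterized gene of the study's genotype list, had 40.2 and 26.4. SINVm1_gene_00897 had 21.95 and 0, and XLOC_038901 had 19.6 and 7.97. Against a floor of 3 counts per library these 4 genes would be at least 13.3-fold, 12.8-fold, 6.99-fold and 6.24-fold lower in M_BB. That bound leaves out the assignment of reads between similar transcripts. The posterior mean counts in M_BB, which average over the possible assignments, were 36.6, 32.4, 16.1 and 5.39. On posterior means the log2 ratio was -0.53 for SINVm1_gene_10898 and -0.96 for XLOC_034528, both under 2-fold.

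Read assignment otherwise moved few calls. Of the higher genes, 71 of 185 shared reads with another transcript and all 185 kept a 2-fold ratio on posterior means, as did 143 of the 147 lower genes, of which 76 shared reads. Sharing was more frequent among the XLOC genes compared (79.8%) and SiOR genes (81.9%) than among SINVm1_gene genes (48.2%). Just inside the 2-fold threshold lay SINVm1_gene_05349, with 32.8 normalized counts in M_BB and 16.1 in P_BB, and SINVm1_gene_04183, with 13.1 and 26.9. Just outside it lay SINVm1_gene_10028, with 11.3 and 5.38, and SINVm1_gene_02857, with 4.69 and 9.86.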

How the data were processed

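Antennal RNA of 3 worker classes was measured with 1 pooled library per class. Per the labels and the file settings, the authors mapped reads with Bowtie to a joined transcript set (official genes, added antennal transcripts, odorant receptors) and ran RSEM, counting both strands alike, so antisense reads are not separated. Tool versions for these libraries are not given in the sources used here. The deposited tables hold expected counts, which need not be whole, posterior mean counts with their SD over read assignments, lengths, and TPM values that the authors scaled to a fixed total within a library. The deposited EBSeq tables hold the authors' own comparison, and they were not used. Deposited transcript models number their loci differently, so no coordinates or sequences are given.

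Each library's expected counts were scaled by its upper quartile (75th percentile of genes counted in any library), giving size factors of 1.07 for M_BB, 1.12 for P_BB and 0.841 for P_Bb. Genes averaging at least 10 normalized counts over the 3 libraries were compared on log2 (normalized count + 0.5), which understates changes of low genes. A gene was called at 2-fold. Intervals are exact conditional (Clopper-Pearson) 95% intervals on rounded counts and carry no pseudocount. No molecular identifiers were read, so these intervals, and floors of 3 counts, hold counting error alone. An interval said to be widened by read assignment is of another kind. It is a normal approximation whose variance adds the squared posterior SD of both counts to the Poisson variance. Where the posterior SD is small it can be narrower than the exact interval. The script was checked on simulated counts. No p-value was computed, since a class was 1 library. The members, gene lists and rules were chosen with earlier results of these data known.

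Genes were named by rule: in each direction the 10 called genes with the interval bound nearest 0 farthest from 0, the first 3 of each ID class, the 3 most abundant called genes, genes at 0 opposite 15 or more normalized counts, social form genes of the study's table that have a predicted function and its other genes with a function where called, the 5 most abundant genes and the 5 receptors with the highest TPM. Alternatives were other size factors (median of ratios, TMM in edgeR 4.0.16 on rounded expected counts, total counts, both SB/SB libraries alone), TPM, posterior means, a pseudocount of 5, minimum means of 1 and 100 or over both SB/SB libraries alone, 4-fold calls, intervals and genes without shared reads. Python 3.11.15, scipy 1.17.1 and R 4.3.3 were used.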

Additional observations from a re-analysis of the deposited data

Results flagged for a closer look

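Posterior mean counts, which the comparison itself did not use, gave a signal above 3 counts in M_BB for each of the 4 genes whose expected count was 0 there. The posterior mean was 36.6 for SINVm1_gene_10898, 32.4 for XLOC_034528, 16.1 for SINVm1_gene_00897 and 5.39 for XLOC_038901. Their posterior SDs in M_BB were 30.8, 32.8, 11.95 and 4.68 counts, and their expected counts in P_BB were 41.8, 40.2, 21.95 and 19.6. No class had the number of libraries that a search for a library far from the others needs.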

How the results depend on the processing

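No paired analysis was possible because each class was a single library, and for the same reason no replicate could be left out. The difference of the class medians held at all 10 alternatives of scaling, value, filter and pseudocount that were run. The directions of the 32 named genes that were called held too, and 24 of the 32 kept a 2-fold ratio throughout. For a named gene only the scalings, values and pseudocount could change this. The filters leave a gene's own ratio as it was, and a named gene under a minimum was not run at it. At a minimum mean of 1, 1888 genes were called, 1027 higher and 861 lower (SINVm1_gene 828 and 595, XLOC 163 and 214, SiOR 36 and 52), with an SD of 0.82 and an all-gene median of 0.011. At a minimum of 100, 23 were called, 4 higher and 19 lower (SINVm1_gene 3 and 7, XLOC 1 and 12, SiOR 0 and 0), with an all-gene median of -0.083, a median of -0.70 for listed genes with no predicted role, and, for transposable elements, 0.33 in place of a median of -0.43. That value is the ratio of XLOC_003144, the single listed gene of this kind left at that minimum. A pseudocount of 5 gave 138 calls, 77 higher and 61 lower (SINVm1_gene 58 and 30, XLOC 17 and 29, SiOR 2 and 2), and a 4-fold threshold 17, 11 higher and 6 lower (SINVm1_gene 9 and 3, XLOC 2 and 2, SiOR 0 and 1). Among genes with no shared reads, 185 were called, 114 higher and 71 lower (SINVm1_gene 105 and 46, XLOC 9 and 22, SiOR 0 and 3). Total counts gave 449 calls, 385 higher and 64 lower (SINVm1_gene 315 and 30, XLOC 62 and 29, SiOR 8 and 5), with an all-gene median of 0.22. TPM gave 384, 285 higher and 99 lower (SINVm1_gene 236 and 40, XLOC 45 and 52), with an all-gene median of 0.13. That median was -0.012 with median-of-ratios and -0.00079 with TMM size factors. SiOR calls lower were 4 with the exact counting interval off 0. They were 5 with the interval that includes read assignment off 0. That interval is a normal approximation and can be narrower than the exact one, so the larger number does not mean firmer calls. Depth limits the genes with a mean of 10 to 20 counts, where the counting SD of the log2 ratio was 0.54 and the interval left out 0 for 83 of the 120 genes called higher and 42 of the 74 called lower.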
